A study of Mus musculus with 13 samples.

Results

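Complex I, the NADH:ubiquinone oxidoreductase, was followed through the transcripts of its nuclear-encoded subunits and assembly factors. Members were all genes whose symbol begins with Ndufa, Ndufb, Ndufc, Ndufs or Ndufv, with symbols containing -ps left out, which gave 49 of the 26264 genes in the deposited tables. They comprised 7 core subunits, 32 accessory subunits, 8 assembly factors whose symbols begin with Ndufaf, and Ndufa4 with its paralog Ndufa4l2. The last pair carries the family name, but the Ndufa4 protein is now placed with complex IV (cytochrome c oxidase), so the pair was kept apart.

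The series compared 7 libraries from mouse right ventricles with the Dsg2 F536C knock-in against 6 from wild-type right ventricles, by stranded sequencing of polyadenylated RNA. The targeted gene encodes a cadherin of the desmosome, and the series describes the allele as the mouse counterpart of a human change linked to arrhythmogenic cardiomyopathy. Both groups were right ventricular tissue. Zygosity, sex, age, litter and strain are not given in the labels, no library is labelled with a treatment, and the labels do not tie each library to an animal of its own, so the tests here rest on the spread between these libraries, which may be technical.

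Complex I takes electrons from NADH, passes them through a flavin and a chain of iron-sulfur clusters to ubiquinone, and uses the energy to pump protons out of the mitochondrial matrix. Its core subunits are shared with bacteria and carry the catalytic steps: the NADH-binding (N) module and the quinone-binding (Q) module are encoded in the nucleus, and the proton-pumping membrane arm has a core encoded in mitochondrial DNA, which was not analysed here. Accessory subunits surround this core, and assembly factors help to build the complex without staying in it. Heart muscle is among the tissues richest in this enzyme.

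Transcripts of nearly every member were lower in knock-in than in wild-type right ventricles. With all 13 libraries, 46 of the 48 members that passed the filter on low counts were lower and 0 were higher, at an adjusted p under 0.05 by the quasi-likelihood test of edgeR with Benjamini-Hochberg adjustment over all 14588 genes tested. Across those genes 21% were lower and 23.6% were higher. The median log2 fold change (knock-in over wild type, here and throughout) was -0.99 over the 48 members, against 0.08 over all genes tested. The 2 members not called were Ndufaf6 and Ndufa4l2, and the member left out by the filter was Ndufa11b, which had 0 to 1.94 TPM in knock-in and 0 to 0.928 TPM in wild-type libraries.

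3 of the knock-in libraries, numbers 4, 5 and 6, differed from the rest in ways the labels do not explain. Krt8, an epithelial keratin, reached 901.7 to 1180 CPM (counts per library size, scaled by the TMM method) in them, against at most 6.38 CPM in the other knock-in libraries and 5.66 CPM in wild-type libraries, and all 5 tested genes of an 8-gene epithelial marker list were higher with 13 libraries but only 1 with 10. Between 10.2% and 10.7% of the read numbers in these 3 libraries were not whole, against 3.25% to 3.79% in knock-in 1, 2, 3 and 7 and 3.07% to 3.52% in wild type. Every comparison was therefore also made without them, on 10 libraries. Dsg2 itself was at 33.2 to 61.9 CPM in knock-in and 84.2 to 116 CPM in wild-type libraries, which put it -1.08 ± 0.14 on the log2 scale (SE; adjusted p = 6.96e-05); total read numbers ran from 14498319 to 29848581.

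Without those libraries, 47 of the 48 tested members were lower and 0 were higher, where 21.3% of 14518 genes were lower and 22.3% higher. The median over members was then -0.82, against 0.02 over all genes. For 46 of the 48 members the log2 fold change lay nearer 0 with 10 libraries than with 13. The exceptions in calling changed in part: Ndufaf6 was lower with 10 libraries, and Ndufa4l2 was again not called.

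The share of all transcripts that coded for complex I subunits showed the same in the deposited TPM (a level per length and library). The 39 core and accessory subunits together made up 2.82%, 3.06% and 3.21% of TPM in knock-in 6, 5 and 4, and 3.83% to 4.34% in knock-in 1, 2, 3 and 7, against 5.28% to 6.03% in the 6 wild-type libraries. The 3 sets of libraries did not overlap. After TMM scaling of the counts, the knock-in and wild-type libraries did not overlap, with knock-in lower, for 45 of 48 members with 13 libraries, where this held for 10.5% of all genes, and for 46 of 48 with 10, where it held for 15.1%. On the TPM scale the same was true of 33 members with 13 libraries (2.81% of all genes) and of 34 with 10 (3.46%).

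The scaling sets the size of these falls. TMM scaling left the median of all genes at 0.08, but with plain library totals that median stood at 0.33, and on log2(TPM + 1) at 0.38. Relative to the median of all genes, the members' median was -1.08 with TMM, -1.07 with library totals and -0.95 on log2(TPM + 1) with 13 libraries, and -0.84, -0.83 and -0.74 with 10. Among all genes the split of calls moved too: 23.6% higher and 21% lower with TMM stood against 41.9% higher and 11.4% lower with library totals, while the members stood at 1 higher and 45 lower with library totals.

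Upstream sequence was available for 41 of the 49 members, as windows of 300 bases running from 250 before to 50 after the annotated start (RefSeq, GRCm38.p6, an earlier build than the GRCm39 that the submitters' processing notes name). Each window was searched on both strands for 4 letter strings that resemble the sites of factors known to act on respiratory-chain genes. The string TGCGCA, the core of the site of nuclear respiratory factor 1 (NRF1), was found in 26.8% of the members' windows, 14.8% of those of 11535 tested genes and 8.79% of those of all 27025 genes with a window. AAGATGG, a site of YY1, was found in 19.5%, 7.88% and 7.28% of the same sets. CCGGAAG, a site of the ETS family that includes GABP, was found in 14.6%, 18.4% and 9.93%. AAGGTCA, the string bound by estrogen-related receptors, was found in 7.32%, 3.84% and 5.38%. None of the strings overlapped each other in the windows printed, and a match is a run of letters, not a bound site.

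5 windows are printed because they hold the matches of the core subunits and the only members with a pair of NRF1 cores. Capitals mark the matches: ETS in Ndufs3 (chr2:90904672-90904971, minus strand) and Ndufs8 (chr19:3912725-3913024, minus strand), YY1 in Ndufs7 (chr10:80249199-80249498, plus strand), and NRF1 in Ndufa6 (chr15:82354242-82354541, minus strand) and Ndufaf4 (chr4:24897833-24898132, plus strand). The windows of Ndufv1 and Ndufv2 held none of the 4 strings. Only 5 of the 7 core subunits had a window, and Ndufs1 was not among them. TGCGCA was found in 0 of these 5 windows, in 10 of 28 of accessory subunits and in 1 of 7 of assembly factors.
Ndufs3: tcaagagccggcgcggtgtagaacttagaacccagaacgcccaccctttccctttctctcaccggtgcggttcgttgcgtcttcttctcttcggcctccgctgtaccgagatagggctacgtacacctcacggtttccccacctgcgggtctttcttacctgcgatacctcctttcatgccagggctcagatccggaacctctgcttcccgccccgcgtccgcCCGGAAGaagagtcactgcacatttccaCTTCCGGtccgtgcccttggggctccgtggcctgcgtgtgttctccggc
Ndufs8: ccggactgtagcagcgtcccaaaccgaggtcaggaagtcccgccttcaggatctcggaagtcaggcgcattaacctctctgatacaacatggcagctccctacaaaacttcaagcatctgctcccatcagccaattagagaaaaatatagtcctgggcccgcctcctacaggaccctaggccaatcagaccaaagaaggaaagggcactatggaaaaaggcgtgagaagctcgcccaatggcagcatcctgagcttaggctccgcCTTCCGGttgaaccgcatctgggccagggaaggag
Ndufs7: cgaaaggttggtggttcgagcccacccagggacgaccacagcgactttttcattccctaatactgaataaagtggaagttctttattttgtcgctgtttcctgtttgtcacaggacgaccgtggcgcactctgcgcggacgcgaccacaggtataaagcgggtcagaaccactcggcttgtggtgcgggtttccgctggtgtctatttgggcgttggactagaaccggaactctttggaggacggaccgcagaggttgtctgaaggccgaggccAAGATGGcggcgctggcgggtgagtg
Ndufa6: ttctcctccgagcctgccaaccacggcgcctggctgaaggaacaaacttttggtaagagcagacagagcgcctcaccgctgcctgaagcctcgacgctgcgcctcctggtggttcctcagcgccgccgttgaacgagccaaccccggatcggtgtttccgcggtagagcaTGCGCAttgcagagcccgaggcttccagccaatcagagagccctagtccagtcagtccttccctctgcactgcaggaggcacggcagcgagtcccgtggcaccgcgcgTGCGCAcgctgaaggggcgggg
Ndufaf4: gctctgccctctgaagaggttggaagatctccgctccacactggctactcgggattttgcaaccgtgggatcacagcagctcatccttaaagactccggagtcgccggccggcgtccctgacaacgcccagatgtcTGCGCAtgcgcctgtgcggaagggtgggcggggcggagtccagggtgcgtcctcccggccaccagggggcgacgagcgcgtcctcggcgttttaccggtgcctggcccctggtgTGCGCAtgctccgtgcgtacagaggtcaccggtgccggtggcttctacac

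All 7 core subunits were lower in knock-in right ventricles, with both 13 and 10 libraries. The median log2 fold change over the core was -1.04 with 13 libraries and -0.95 with 10. It was -1.25 and -1.13 over the 3 genes of the N module, and -0.99 and -0.85 over the 4 of the Q module. Ndufv2 had the largest fall of the core with 13 libraries and Ndufs8 with 10. The difference between the modules was not tested.

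In the N module, Ndufv1 encodes the subunit that binds NADH and the flavin. Its level was 297, 348 and 406 TPM (lowest, median and highest) in knock-in and 424, 521 and 641 TPM in wild-type libraries. The ranges did not overlap, with knock-in 6 the highest of its group and wild type 1 the lowest of its own; on the log2 scale it changed by -1.03 ± 0.12 (SE; adjusted p = 4.37e-05) with 13 libraries and -0.95 ± 0.13 with 10. Ndufv2, which carries an iron-sulfur cluster beside the flavin subunit, was at 600.2, 715 and 951 TPM in knock-in and 1022, 1453 and 1716 TPM in wild-type libraries. Knock-in 4, 5 and 6 were the lowest, wild type 1 and 2 lay well below the other wild-type libraries, and the groups did not overlap. Its log2 fold change was -1.35 ± 0.20 (adjusted p = 0.000183) with 13 libraries and -1.13 ± 0.21 with 10. Ndufs1, the largest subunit of the module and the carrier of further iron-sulfur clusters, was at 229, 271 and 339.8 TPM in knock-in and 359, 485 and 531 TPM in wild-type libraries. Here knock-in 1 was the lowest and knock-in 4 to 6 lay within the range of the others; the groups did not overlap, and it changed by -1.25 ± 0.15 (adjusted p = 3.72e-05) with 13 libraries and -1.13 ± 0.16 with 10.

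In the Q module, Ndufs7 carries the last iron-sulfur cluster, which hands electrons to ubiquinone, and its window above holds the YY1 string. It was at 356, 419.6 and 506 TPM in knock-in and 522, 609 and 790.1 TPM in wild-type libraries. The groups did not overlap, and Ndufs7 changed by -1.04 ± 0.11 on the log2 scale (adjusted p = 2.49e-05) with 13 libraries and -0.89 ± 0.10 with 10. Ndufs8, which carries the clusters that feed Ndufs7, was at 415, 487 and 595 TPM in knock-in and 656, 938 and 1142 TPM in wild-type libraries. Wild type 1 and 2 were again the lowest of their group and still above all knock-in libraries; the log2 fold change was -1.30 ± 0.18 (adjusted p = 9.97e-05) with 13 libraries and -1.17 ± 0.20 with 10. Ndufs3, a subunit of the module without a cluster, was at 328, 352 and 444 TPM in knock-in and 487, 500.5 and 626 TPM in wild-type libraries, without overlap. Its log2 fold change was -0.95 ± 0.12 (adjusted p = 4.6e-05) with 13 libraries and -0.81 ± 0.11 with 10.

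Read numbers of Ndufs1 were whole in all libraries except knock-in 4, 5 and 6. Exons of Ndufs1 and Ndufs3 overlap a gene on the opposite strand (GENCODE vM21), as do those of Ndufa9, Ndufa11 and Ndufaf2, described further on. The values of these genes are uncertain if strand was not used in counting. Exons of Ndufb9 and Ndufb8, also described further on, overlap a gene on the same strand, which strand cannot tell apart.

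**Figure D1:**
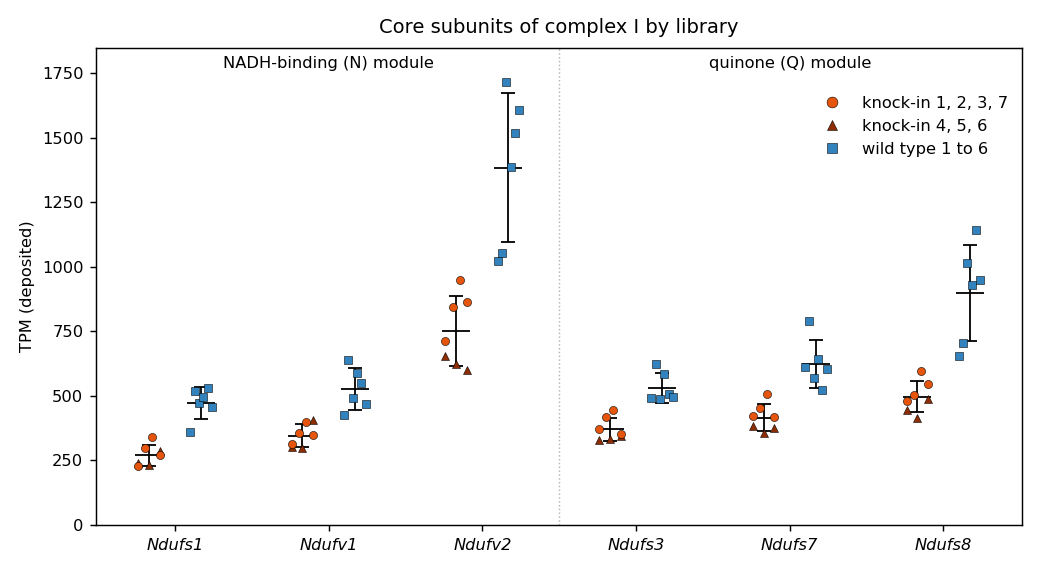
Deposited TPM of 6 nuclear-encoded core subunits in each library, knock-in left of wild type for each gene, with bars at the mean ± SD of each group. The groups do not overlap for any of the genes shown.

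The 31 accessory subunits tested were all lower in knock-in right ventricles, with 13 and with 10 libraries. Their median log2 fold change was -1.05 with 13 libraries and -0.82 with 10. The 13 tested Ndufa subunits (medians -1.05 and -0.80), the 12 Ndufb subunits (-1.05 and -0.84), most of which sit in the membrane arm, and the 6 Ndufc, Ndufs and Ndufv subunits (-1.06 and -0.85) lay close together. Single genes ran from -1.48 for Ndufa3 to -0.56 for Ndufa10 with 13 libraries, and from -1.26 to -0.38 for the same genes with 10. Of all members, 24 were called and at least 2-fold lower with 13 libraries, where 4.26% of all genes were, and 12 with 10, where 2.76% were.

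The accessory subunits with the largest falls came from both arms. Ndufa3, a small subunit of the membrane arm, was at 1554, 2192 and 2582 TPM in knock-in and 3167, 4303 and 5306 TPM in wild-type libraries, a log2 fold change of -1.48 ± 0.19 (adjusted p = 7.51e-05) with 13 libraries and -1.26 ± 0.19 with 10. Ndufv3, an accessory subunit of the N module, was at 965, 1379.6 and 1669 TPM in knock-in and 1894, 2697 and 3135 TPM in wild type, a log2 fold change of -1.41 ± 0.20 (adjusted p = 0.000125) and, with 10 libraries, -1.19 ± 0.20. In both genes the groups did not overlap, knock-in 4, 5 and 6 were the lowest knock-in libraries, and wild type 1 and 2 the lowest wild-type ones. Ndufa9, a nucleotide-binding subunit near the quinone site, was at 295, 345 and 434 TPM in knock-in and 456, 678 and 889.8 TPM in wild type, a log2 fold change of -1.37 ± 0.18 (adjusted p = 8.67e-05) and, with 10 libraries, -1.19 ± 0.20. Ndufs6, a zinc-binding subunit needed to complete the N module, was at 867, 1209 and 1548 TPM in knock-in and 1852, 2221 and 2379 TPM in wild type, a log2 fold change of -1.34 ± 0.18 (adjusted p = 0.000104) and, with 10 libraries, -1.09 ± 0.16. Neither gene's groups overlapped. Ndufb4, of the membrane arm, was at 243, 354 and 403 TPM in knock-in and 487, 611 and 657 TPM in wild type, again without overlap, with a log2 fold change of -1.31 ± 0.17 (adjusted p = 6.32e-05) and, with 10 libraries, -1.07 ± 0.13. Its read numbers were not whole in any of the 13 libraries, and the same held for Ndufb4c and Ndufs5. In knock-in libraries the reads of Ndufb4 and Ndufb4c added to whole numbers, as with 1336.68 and 6223.32 in knock-in 1. Reads were thus divided between Ndufb4 and Ndufb4c, and their falls are not independent, though both are counted among the accessory subunits. Reads of Ndufs5 were divided with other loci. The values of these genes are uncertain to that extent.

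With 13 libraries the smallest accessory changes were those of Ndufa10, Ndufb9 and Ndufa8; with 10 they were those of Ndufa10, Ndufs5 (-0.60) and Ndufa8. Ndufa10, a subunit with a nucleoside-kinase fold, was at 287, 331 and 406 TPM in knock-in and 316, 363 and 531 TPM in wild-type libraries. These ranges overlapped, and knock-in 1, 2 and 3 each lay above at least 4 of the 6 wild-type libraries. After TMM scaling it was at 246 ± 49.2 CPM in knock-in (SD, n = 7) and 363 ± 38.2 CPM in wild type (SD, n = 6), without overlap, a log2 change of -0.56 ± 0.13 (SE; adjusted p = 0.00453) with 13 libraries and -0.38 ± 0.11 (adjusted p = 0.0146) with 10. The call was lost with library totals, at -0.32 (adjusted p = 0.0536), and on log2(TPM + 1), at -0.15 (limma, adjusted p = 0.329). Ndufb9, which holds the acyl carrier protein Ndufab1 on the membrane arm, was at 1423, 1688 and 1889.6 TPM in knock-in and 1956, 2134 and 2356 TPM in wild type, a log2 fold change of -0.77 ± 0.09 (adjusted p = 4.58e-05) and, with 10 libraries, -0.75 ± 0.11. Its groups did not overlap, and knock-in 7 was the lowest library, with knock-in 5 the highest of its group. Ndufa8, a cysteine-rich subunit on the intermembrane side, was at 401, 460.4 and 593 TPM in knock-in and 553, 637 and 722 TPM in wild type, which overlapped, with a log2 fold change of -0.79 ± 0.13 (adjusted p = 0.000284) and, with 10 libraries, -0.63 ± 0.11.

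**Figure D2:**
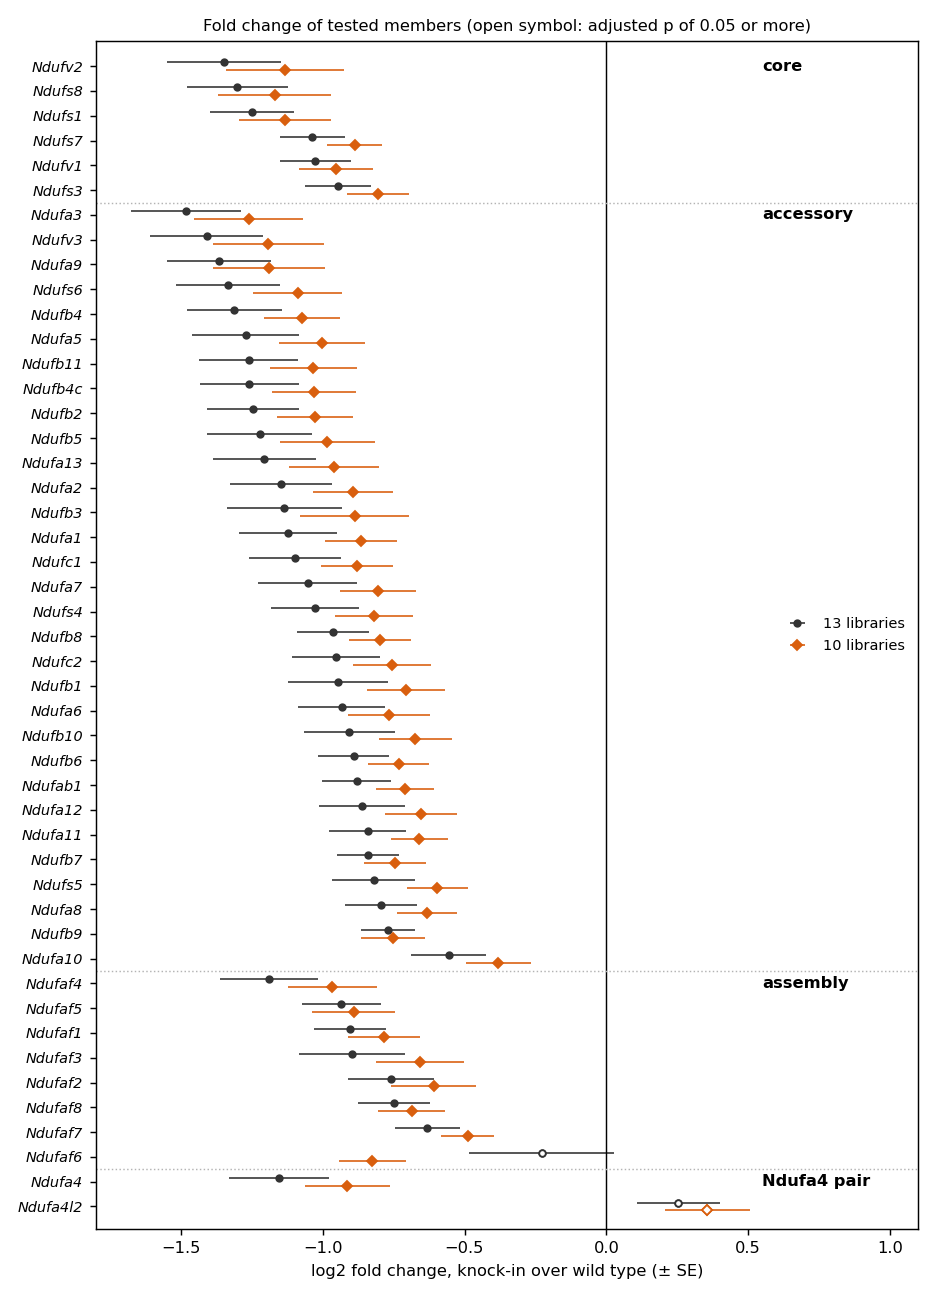
Log2 fold change, knock-in over wild type, with its SE, for the tested members reported here, by class and in order of the 13-library value; circles are 13 libraries and diamonds 10. All points lie below 0 except those of Ndufa4l2, and Ndufaf6 is the gene that moves most between the sets; with library totals or TPM its 13-library value lies just above 0.

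The assembly factors were lower too, with a single exception that depended on the libraries used. With 13 libraries 7 of 8 were lower, at a median log2 fold change of -0.83, and with 10 libraries all 8 were lower, at -0.74. Their transcripts were scarcer than those of the core subunits. In wild type the mean levels of the 8 genes ran from 16.3 to 252 TPM, against 472.6 to 1384 TPM for the core subunits. The accessory subunit Ndufa11, at a mean of 111 TPM in wild type, lay within the range of the assembly factors. The roles given here were worked out mainly in human cells.

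Ndufaf4, which acts with Ndufaf3 on the Q module and has the pair of NRF1 cores shown above, fell most. It was at 28.5, 35.2 and 43.9 TPM in knock-in and 45.2, 58.6 and 65.6 TPM in wild-type libraries. The groups did not overlap, knock-in 4, 5 and 6 lay together at the low end, and the log2 fold change was -1.19 ± 0.17 (adjusted p = 0.000151) with 13 libraries and -0.97 ± 0.16 with 10. Ndufaf3 was at 18.1, 28.0 and 32.2 TPM in knock-in and 28.7, 34.3 and 43.1 TPM in wild type, which overlapped, with a log2 fold change of -0.90 ± 0.19 (adjusted p = 0.00187) and, with 10 libraries, -0.66 ± 0.15. With 10 libraries its call was lost on log2(TPM + 1), at -0.21 (limma, adjusted p = 0.127). It was also lost with the replicate block, at -0.46 (edgeR, adjusted p = 0.0762). That block used only knock-in and wild type 1, 2 and 3, the numbers left in both groups. Ndufaf1, which works in the membrane-arm assembly complex with Ecsit, Acad9 and Tmem126b, was at 44.5, 46.1 and 55.7 TPM in knock-in and 54.5, 68.4 and 71.5 TPM in wild type. The overlap came from wild type 1, the only wild-type library below 65.4 TPM, and the log2 fold change was -0.90 ± 0.13 (adjusted p = 0.00012) and, with 10 libraries, -0.78 ± 0.13.

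Assembly factors with enzyme activity and their partners were also lower. Ndufaf5, which hydroxylates an arginine of Ndufs7, was at 9.85, 12.4 and 13.4 TPM in knock-in and 13.99, 16.6 and 18.4 TPM in wild-type libraries, without overlap, with a log2 fold change of -0.93 ± 0.14 (adjusted p = 0.000181) and, with 10 libraries, -0.89 ± 0.15. Ndufaf8, which stabilises Ndufaf5, was at 157, 201 and 262 TPM in knock-in and 219, 253 and 278 TPM in wild type, where knock-in 1 and 5 lay within the wild-type range; the log2 fold change was -0.75 ± 0.13 (adjusted p = 0.000471) and, with 10 libraries, -0.69 ± 0.12. Ndufaf7, an arginine methyltransferase that acts early in assembly, was at 13.8, 16.8 and 17.4 TPM in knock-in and 16.1, 18.7 and 19.3 TPM in wild type. These overlapped, and its log2 fold change was -0.63 ± 0.11 (adjusted p = 0.000665) and, with 10 libraries, -0.49 ± 0.09; on log2(TPM + 1) it was -0.18 and not called (limma, adjusted p = 0.0867). Ndufaf2, a paralog of Ndufa12 that acts late in assembly, was at 67.9, 81.4 and 93.6 TPM in knock-in and 82.8, 99.96 and 118 TPM in wild type. Its groups overlapped after TMM scaling as well, with 27.1 ± 4.21 CPM in knock-in (SD, n = 7) and 46.0 ± 10.5 CPM in wild type (SD, n = 6); the log2 fold change was -0.76 ± 0.15 (adjusted p = 0.00135) and, with 10 libraries, -0.61 ± 0.15 (adjusted p = 0.00523). With 10 libraries this call was lost on log2(TPM + 1), at -0.17 (limma, adjusted p = 0.197). It was also lost with the replicate block, at -0.35 (edgeR, adjusted p = 0.0915), again fitted on knock-in and wild type 1, 2 and 3 alone.

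Ndufaf6, an early assembly factor related to squalene and phytoene synthases, split the knock-in libraries. It was at 37.4, 61.2 and 33.8 TPM in knock-in 4, 5 and 6 and at 17.6, 17.3, 20.1 and 19.1 TPM in knock-in 1, 2, 3 and 7, against 21.5, 24.8 and 28.0 TPM (lowest, median and highest) in wild-type libraries. Knock-in 4, 5 and 6 were thus above all wild-type libraries and the other 4 knock-in libraries below all of them. With 13 libraries the log2 fold change was -0.23 ± 0.26 (adjusted p = 0.479), and it was 0.03 with library totals and 0.10 on log2(TPM + 1); with 10 libraries it was -0.82 ± 0.12 (adjusted p = 0.000123). Ndufaf6 was the only member for which knock-in 4, 5 and 6 lay above the other knock-in libraries after TMM scaling, as 21.6% of all genes did, while for 33 of the 48 members they lay below, as did 29.4% of all genes. These are the libraries with the epithelial keratins given above, whose part in the Ndufaf6 values was not tested.

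Ndufa4 and Ndufa4l2 went different ways. Ndufa4 was the most abundant member, at 5403, 8695 and 9589 TPM in knock-in and 11213, 13044 and 14498 TPM in wild-type libraries. The groups did not overlap, and its log2 fold change was -1.15 ± 0.18 (adjusted p = 0.000216) with 13 libraries and -0.91 ± 0.15 with 10. Ndufa4l2, a paralog induced by low oxygen and strongly expressed in pericytes, the cells that wrap small vessels, was at 37.0, 40.2 and 50.01 TPM in knock-in and 18.2, 24.7 and 44.6 TPM in wild type. All knock-in libraries lay above 5 of the 6 wild-type libraries, the exception being wild type 2 at 44.6 TPM. The log2 fold change was 0.25 ± 0.15 (adjusted p = 0.166) with 13 libraries and 0.36 ± 0.15 (adjusted p = 0.0704) with 10. Without wild type 2 it was 0.41 (adjusted p = 0.0140) with 13 libraries and 0.48 (adjusted p = 0.00401) with 10. It was also called higher with library totals, at 0.49 with 13 libraries (adjusted p = 0.0241). With library totals, however, 41.9% of all genes were higher with 13 libraries and 41.7% with 10, and the 13-library median of all genes was 0.33. Of 7 pericyte markers, 2 were higher (Pdgfrb and Notch3) and 2 lower (Vtn and Kcnj8) with 13 libraries, and 1 was higher (Pdgfrb) and 1 lower (Vtn) with 10. With library totals 3 were higher (Pdgfrb, Notch3 and Cspg4) and 0 lower in both sets, so the balance of these markers depends on the scaling. Their summed level was 936 to 1646 CPM in knock-in and 1153.5 to 1895 CPM in wild-type libraries, and their part in the Ndufa4l2 values was not tested.

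**Figure D3:**
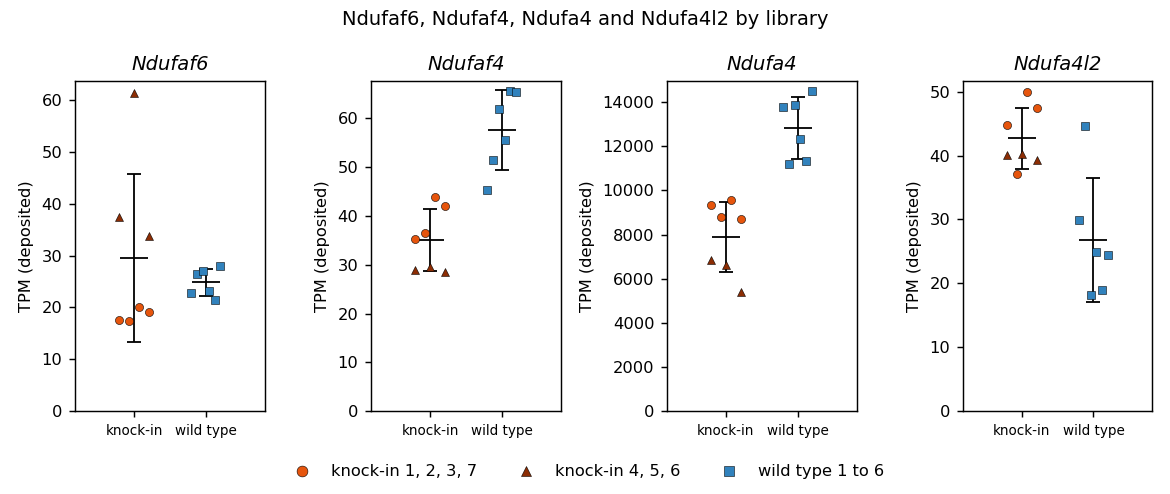
Deposited TPM of Ndufaf6, Ndufaf4, Ndufa4 and Ndufa4l2 in each library, each on an axis from 0, with bars at the mean ± SD of each group. Ndufaf6 is above wild type in knock-in 4, 5 and 6 and below it in knock-in 1, 2, 3 and 7, and wild type 2 is the wild-type library within the knock-in range for Ndufa4l2.

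Fold changes were related to level across the members. Between the log2 mean TPM over all libraries and the 13-library log2 fold change, Pearson's r was -0.53 and Spearman's rho -0.47 over 48 genes. More abundant members thus tended to have fallen further. With the 10-library fold changes the values were -0.42 and -0.37. Over the 38 tested core and accessory subunits alone they were -0.31 and -0.27 with 13 libraries and -0.27 and -0.24 with 10. These are descriptions across genes that share the same libraries, not across replicates. Among libraries of 1 group, the TPM of a member varied by a median coefficient of variation of 8.45% in knock-in 1, 2, 3 and 7 and 10.8% in wild type.

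**Figure D4:**
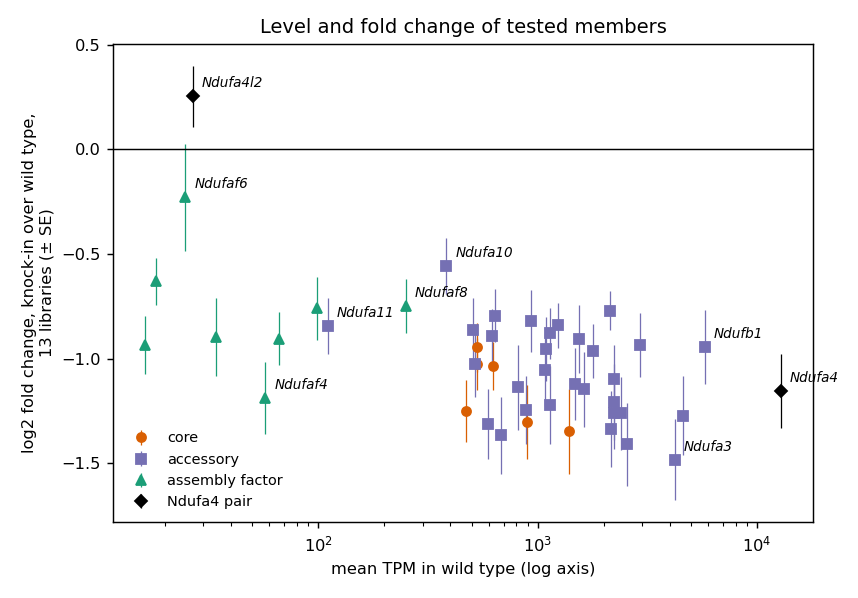
Log2 fold change with its SE (13 libraries) against the mean wild-type TPM on a log axis, for the tested members reported here, by class. Assembly factors lie at the left, where Ndufaf4 fell by 1.19 and Ndufaf6 is nearest 0, Ndufa4 lies at the far right, and the point above 0 belongs to Ndufa4l2.

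Genes that serve complex I without belonging to it were often lower as well, by less at the median, but many of these calls depend on the scaling. The counts below are with TMM, where 21% of all genes were lower with 13 libraries and 21.3% with 10; with library totals, 11.4% of all genes were lower with 13 libraries and 10.5% with 10, and 41.9% and 41.7% were higher. Of 11 other assembly factors found in the files, 10 were lower and 0 higher with 13 libraries (median log2 fold change -0.68) and 11 were lower with 10 (-0.52). With library totals 6 of the 11 were lower in both sets and 5 were not called (medians -0.43 and -0.26). The 3 with the smallest p were Ecsit, the partner of Ndufaf1, at -0.81 ± 0.10 (SE), Tmem70, which helps to build the membrane arm and ATP synthase, at -1.04 ± 0.16, and Foxred1, a flavoprotein of late assembly, at -0.68 ± 0.11. Acad9 was the one not called with 13 libraries, at -0.36 (adjusted p = 0.174), and it was lower with 10 at -0.58 (adjusted p = 0.000529).

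All 4 factors that help complexes to join into supercomplexes were lower with 13 libraries (median -0.48) and 2 with 10 (-0.30), with Higd1a at -0.96, Higd2a at -0.45 and Cox7a2l at -0.48 with 13. With library totals 1 of the 4, Higd1a, was lower in both sets (medians -0.23 and -0.05). In TPM, Cox7a2l had a median of 618.7 in knock-in 1, 2, 3 and 7 and 565 in wild type, and Higd2a had 234.03 in those knock-in libraries and 228 in wild type. Of 17 genes for protein import, folding and proteolysis in mitochondria, 13 were lower and 0 higher in both sets (medians -0.57 and -0.60), and with library totals 9 were lower with 13 libraries and 10 with 10. Those with the smallest p were the protease subunit Clpx at -0.88, the mitochondrial intermediate peptidase Mipep at -0.84 and the import motor subunit Timm44 at -0.72 with 13 libraries. Of 15 genes that supply iron-sulfur clusters and flavin, 11 were lower and 0 higher in both sets (-0.58 and -0.52), among them the cysteine desulfurase Nfs1 at -0.78 and the cluster carrier Isca2 at -0.81. With library totals 9 were lower in both sets and 1, the carrier Slc25a32, was higher, at 0.56 with 13 libraries (adjusted p = 0.00602) and 0.38 with 10 (adjusted p = 0.0160). Of 13 genes for the expression of mitochondrial DNA, 9 were lower with 13 libraries and 10 with 10, with 0 higher (-0.58 and -0.45), and 6 were lower in both sets with library totals. Those with the smallest p were the RNA-binding Lrpprc at -1.13, the elongation factor Tefm at -0.999 and the packaging factor Tfam at -0.73 with 13 libraries.

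Nuclear regulators of respiratory genes were the list without a common direction. With 13 libraries 7 of 12 were lower and 3 higher, and with 10 libraries 6 were lower and 1 higher. With library totals 4 were lower with 13 libraries and 3 with 10, and 4 were higher in both sets (Pprc1, Nrf1, Gabpb1 and Yy1). The orphan receptor Esrrg was at 7.47, 8.37 and 12.02 TPM in knock-in and 12.9, 14.0 and 16.05 TPM in wild-type libraries, without overlap, a log2 fold change of -1.09 ± 0.14 (adjusted p = 6.87e-05). Perm1, a muscle regulator of mitochondrial genes, was at -0.85 ± 0.15 and Esrra at -0.58 ± 0.11. The coactivator Pprc1 was higher in both sets, at 0.64 (adjusted p = 0.00948) with 13 libraries and 0.50 (adjusted p = 0.0318) with 10. Nrf1, whose core site is marked in the windows above, was higher with 13 libraries at 0.30 (adjusted p = 0.0451) and not called with 10 at 0.24 (adjusted p = 0.116). Gabpb1, a subunit of the ETS factor GABP, was higher with 13 at 0.37 (adjusted p = 0.0288) and not called with 10 at 0.15 (adjusted p = 0.212). Gabpa, another GABP subunit, was lower at -0.34 (adjusted p = 0.00794) with 13 and -0.30 (adjusted p = 0.0212) with 10. With library totals Gabpa was not called in either set.

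The falls were not confined to complex I. Of the 39 tested nuclear genes of complexes II, III, IV and V, all 39 were lower in both sets, with medians of -1.12 and -0.95, against -1.04 and -0.95 for the core and -1.05 and -0.82 for the accessory subunits of complex I; the difference was not tested. Most markers of cardiomyocytes, cells rich in mitochondria, were lower as well. With TMM 15 of 16 were lower with 13 libraries (median -0.999) and 13 with 10 (-0.74), with 0 higher. With library totals 13 of the 16 were lower with 13 libraries, and 11 were lower and 1 higher with 10. All 39 genes of complexes II to V stayed lower there. In TPM, knock-in lay below wild type without overlap for 2 of the 16 markers and 31 of the 39 genes in both sets. That held for 2.81% of all genes with 13 libraries and 3.46% with 10. The summed level of the cardiomyocyte markers was 39601 to 77736 CPM in knock-in and 88679 to 134050 CPM in wild-type libraries. For 8 fibroblast markers the sum was 4924 to 10879 CPM in knock-in and 2362 to 4196 CPM in wild-type libraries. With TMM 4 of these 8 were higher with 13 libraries and 7 with 10, with 0 lower. Of all genes, 23.6% were higher with 13 libraries and 22.3% with 10. The part of these markers in the members' values was not tested. In bulk tissue, fewer cells of a type and less RNA per cell cannot be told apart.

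**Figure D5:**
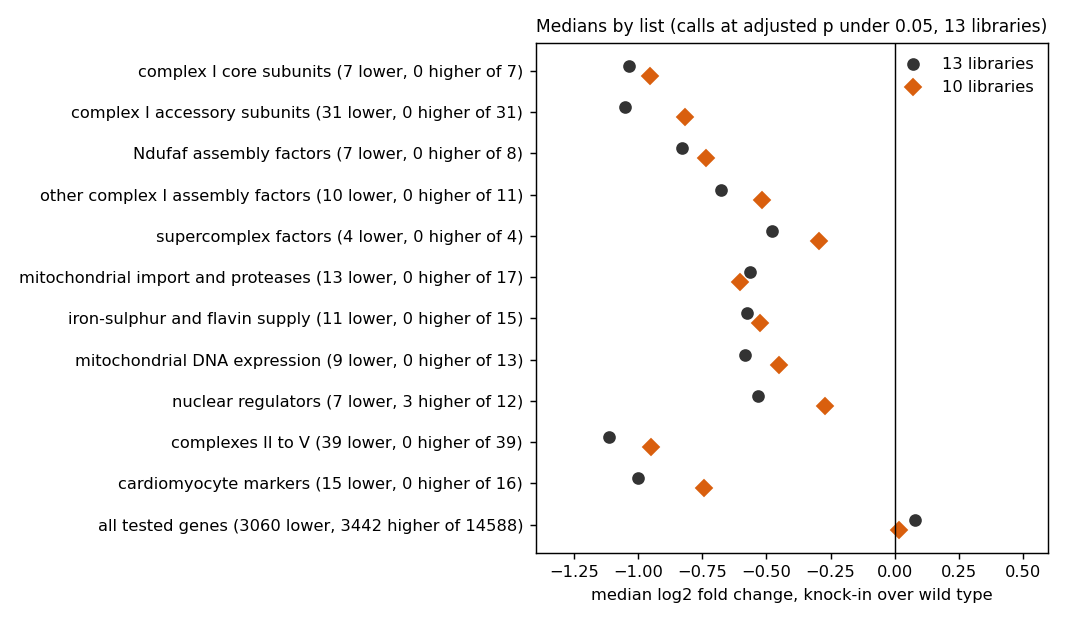
Median log2 fold change, knock-in over wild type, of each gene list with 13 libraries (circles) and 10 libraries (diamonds), with the number of genes lower and higher of those tested at 13 libraries. Complex I subunits, complexes II to V and cardiomyocyte markers lie near -1 with 13 libraries, the lists that serve complex I between -0.48 and -0.68, and all genes near 0.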

How the data were processed

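Stranded libraries were made from polyadenylated RNA of mouse right ventricles, per the labels' protocols. DRAGEN (no version) and the build GRCm39 (mm39) are named in the submitters' processing notes, and the annotation is not given in the sources used here. The authors deposited, per library and gene, an estimated count of reads, a TPM value, a length and an effective length. Estimated counts were rounded to whole numbers. The members and gene lists were chosen with earlier results of these data known.

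Counts were fitted with edgeR 4.0.16 (R 4.3.3; filterByExpr, TMM, robust quasi-likelihood test) over all genes, knock-in over wild type, with Benjamini-Hochberg adjustment over all genes tested and a threshold of 0.05. CPM are counts relative to the TMM-scaled library total. The fit was made on 13 libraries and on 10, and was tested on simulated data first. Alternatives used DESeq2 1.42.0, limma 3.58.1 (voom with quality weights, and log2(TPM + 1) or log2(TPM + 0.1)), other scalings, filters, length offsets, a replicate block, and each library left out in turn. The closest pair of libraries had a chi-square of 7.52 for each degree of freedom, so no library was counted as a repeat of another. Totals of 14498319 to 29848581 reads put at least 197 reads on every tested member in every library but limit the precision of the scarcer assembly factors.

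Some genes that enter the totals, counts and medians are not reported here by themselves. Otherwise levels are given as the lowest, median and highest TPM of each group, or for some genes by library. This covers the core subunits, the assembly factors, the Ndufa4 pair and members whose call differed between fits. It also covers the 5 accessory subunits with the largest fall and the 3 with the smallest change. Other lists are named by up to 3 genes of smallest p and by those called against their list, with Gabpa given beside Gabpb1. Complex V lacked 1 listed gene and the other assembly factors lacked Coa1, not analysed here. Exons of 13 members overlap those of a gene on the opposite strand by at least 50 bases in GENCODE vM21 (GRCm38), and whether counting used the strand is not given in the sources used here, so reads of those pairs may not be told apart. Exons of 3 members overlap those of a gene on the same strand in that annotation, which strand cannot tell apart. Upstream windows and their build are from RefSeq.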

Additional observations from a re-analysis of the deposited data

Results flagged for a closer look

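In 4 of the 94 groups of libraries examined (each tested member reported here, within knock-in and within wild type), the TPM of 1 library lay far from the rest of its group by Dixon's test, and chance alone flags about 1 group in 20. In wild type 2, Ndufa10 was at 530.6 TPM, against 316 to 389 TPM in the other wild-type libraries, and Ndufs5 at 1132 TPM, against 880.5 to 928 TPM. Wild type 2 was the low one for Ndufb4c, at 1766 TPM, against 2233 to 2427 TPM. The remaining library was wild type 1, where Ndufaf1 was at 54.5 TPM, against 65.4 to 71.5 TPM in the other wild-type libraries.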

How the results depend on the processing

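Over 25 alternatives with 13 libraries, the 48 tested members kept their direction and their side of the threshold in 1183 of 1200 pairs of member and alternative; 7 lost a call, 7 gained one and 3 changed sign. With 10 libraries and 21 alternatives, 984 of 1008 kept both, 19 lost a call, 5 gained one and 0 changed sign. The cause was not tested for any of these. The sign changes were those of Ndufaf6 with 13 libraries, at 0.0325 with library totals, 0.0993 on log2(TPM + 0.1) and 0.0999 on log2(TPM + 1). In both sets the count of members called higher became 1, Ndufa4l2, in place of 0 under some alternatives. These were library totals, either TPM scale, voom and leaving out wild type 2. Over all libraries left out in turn the count ran from 0 to 1. With 13 libraries, 41.9% of all genes were higher with library totals, 52.5% on log2(TPM + 1) and 53.7% on log2(TPM + 0.1). The shares were 27% with voom and 23.1% without wild type 2. The median of the members was -0.567 on log2(TPM + 0.1) and -0.566 on log2(TPM + 1) with 13 libraries, and -0.567 with library totals, -0.421 on log2(TPM + 0.1) and -0.421 on log2(TPM + 1) with 10. Leaving out 1 library gave medians of -1.04 to -0.93 with 13 libraries and -0.88 to -0.79 with 10, and moved none of the counts lower: 46 members, 7 core subunits, 31 accessory subunits and 7 assembly factors with 13, and 47, 7, 31 and 8 with 10. In those fits 17.2% to 21.9% of all genes were lower with 13 libraries and 17.4% to 23.1% with 10. Assembly factors called lower with 10 libraries numbered 5 on either TPM scale. There 6.43% of all genes were lower on log2(TPM + 0.1) and 6.36% on log2(TPM + 1). The labels do not say whether shared replicate numbers pair the libraries. Correlations of same-numbered deviations ran from -0.107 to 0.0881, and 0 of 6 matched best with their own number. No pairing was seen, but so few numbers cannot exclude one. With the replicate block, on the libraries whose number occurs in both groups, 46 members were called lower with 13 libraries and 42 with 10, of which 5 were assembly factors, with medians of -1.002 and -0.67. Of all genes, 17.5% were lower with that block with 13 libraries and 9.69% with 10. Of the 13 libraries the block kept knock-in and wild type 1 to 6. Of the 10 it kept only knock-in and wild type 1, 2 and 3, so calls lost there come with fewer libraries.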

Other observations

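The deposited tables give each gene a length in each library. It varied for 17 of the 49 members, and this was looked at after their values were seen. For Ndufv3 it was 495 to 501 bases in knock-in and 491 to 494 bases in wild-type libraries, a difference of 5.95 bases (exact two-sided permutation test, p = 0.00117, the smallest that 7 against 6 libraries can give; 0.0132 after Benjamini-Hochberg adjustment over the 17 genes). Lengths without overlap and longer in knock-in occurred in 0.964% of the 6636 genes whose length varied. With 10 libraries the difference was 6.42 bases (exact p = 0.00952, the smallest possible; adjusted 0.0540). Ndufb8 averaged 689.7 ± 1.38 bases in knock-in and 687 ± 0.408 bases in wild type (SD, n = 7 and 6, exact p = 0.00233, adjusted 0.0132). Ndufa7 averaged 535 ± 0.90 bases in knock-in and 533 ± 1.03 bases in wild type (exact p = 0.00233, adjusted 0.0132). With 10 libraries both had the smallest possible exact p, 0.00952, which gave an adjusted value of 0.0540 each. Their lengths did not overlap there, at 689 to 692 against 687 to 688 bases for Ndufb8 and 535 to 537 against 531 to 534 for Ndufa7. With 10 libraries, lengths without overlap and longer in knock-in occurred in 2.02% of the 6499 genes whose length varied.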
